A study of Bos grunniens with 6 samples.

Results

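Respiratory complex I, the NADH:ubiquinone oxidoreductase of the inner mitochondrial membrane, was followed through the mRNA of its subunits in 2 cultured cell types of the yak hair follicle. Members were the genes whose Gene Ontology annotation in the authors' table held the term for mitochondrial respiratory chain complex I, and 48 of 15646 listed genes carried it. Of these 48, 45 bore the symbol of a subunit and stood for 35 distinct subunits, because 9 symbols occurred in more than 1 row, with 10 further rows in all. The other 3 members were PARK7, FOXRED1 and WDR93, which are not subunits. The 3 nuclear-encoded subunits NDUFA13, NDUFS5 and NDUFS8 and the 7 mitochondrially encoded subunits were not analysed here.

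The study compared dermal papilla cells (DPC) with hair matrix cells (HMC) of yak (Bos grunniens), 3 libraries of each. Dermal papilla cells are the mesenchymal cells at the base of the follicle that signal to the overlying epithelium, and hair matrix cells are the epithelial cells around the papilla whose division builds the hair shaft. Both were wild-type cells isolated from skin and cultured in DMEM/F12 with 10% FBS, 20 ng/mL EGF, 10 ng/mL IGF1 and antibiotics, and the labels name no further treatment. The labels call the replicates biological without saying whether they came from separate animals, so p-values measure the spread between these cultures only, and the age of the animals is not stated in them.

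Complex I takes electrons from NADH, passes them along a chain of iron-sulfur clusters to ubiquinone and pumps protons out of the matrix. It is L-shaped. The N module at the tip of the matrix arm oxidises NADH, the Q module beneath it reduces ubiquinone, and the proximal and distal pump modules form the membrane arm. A conserved catalytic core is shared with bacteria, and the remaining supernumerary subunits surround and stabilise it. Most subunits are encoded in the nucleus and imported, and assembly factors that are absent from the finished enzyme put the modules together.

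Reads recovered from the values of the table gave library totals of 13.186 to 13.472 M fragments in DPC and 13.82 to 14.128 M in HMC, where M stands for mega. The 10 most abundant genes took 13.3% to 13.99% of reads in DPC and 8.52% to 8.55% in HMC. FPKM, the fragments of a gene per kilobase of its length and per M mapped fragments, had library sums of 548897 to 554803 for DPC, against 647963 to 651773 for HMC. HMC replicate 3 lay apart from the other HMC libraries on the second principal component, which held 0.77% of the variance against 97.4% for the first. All 9 mesenchymal markers were higher in DPC (summed level 15805 to 16389 FPKM in DPC, 510.0 to 616 FPKM in HMC), and 6 of 7 matched epithelial markers were lower in DPC (52.2 to 72.0 FPKM in DPC, 4990 to 5290 FPKM in HMC), KRT14 being the exception. Of 9 markers of endothelium, melanocytes and immune cells 6 were matched, with sums of 4.06 to 4.74 FPKM in DPC and 10.8 to 13.99 FPKM in HMC. Of the endothelial markers, PECAM1 and CDH5 were at 0 or close to it in every library, and VWF (listed as F8VWF) averaged 0.0355 ± 0.0172 FPKM in DPC libraries, against 1.08 ± 0.0447 FPKM in HMC libraries, and was lower in DPC (log2 difference -1.01, adjusted p = 9.37e-06). AIF1, a macrophage marker, averaged 0.0511 ± 0.0443 FPKM in DPC libraries, against 6.48 ± 1.55 FPKM in HMC libraries (SD, n = 3 each). CD68, the other immune marker matched, averaged 1.29 ± 0.198 FPKM in DPC libraries, against 1.14 ± 0.308 FPKM in HMC libraries, and was not called (log2 difference 0.11, adjusted p = 0.469). PMEL (listed as PMEL17), the only melanocyte marker matched, averaged 2.98 ± 0.395 FPKM in DPC libraries, against 3.97 ± 0.754 FPKM in HMC libraries. It was called lower in DPC (log2 difference -0.31, adjusted p = 0.0484), but not after median-of-ratios scaling (adjusted p = 0.208) or quantile normalization (adjusted p = 0.267). The part of these markers in the results was not tested.

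Most complex I subunit mRNAs were lower in DPC than in HMC, in every module of the enzyme. Groups were compared with limma on log2(FPKM + 1) over the 11883 genes that averaged 0.5 FPKM or more across libraries, and a gene was called when its p, adjusted over all of them by the Benjamini-Hochberg method, was below 0.05. All 35 subunits entered the test, and 33 were lower in DPC and 0 higher, where 46.2% of all genes tested were lower and 29.7% higher, 75.9% in all. In 32 of the 35 subunits every DPC library lay below every HMC library, a pattern found in 47.1% of all genes. Over all 43 members tested, 35 were lower in DPC, 0 were higher and 8 were not called. The median log2 difference (DPC minus HMC) of the subunits was -0.63, with quartiles of -0.76 and -0.50 and a range of -1.30 to 0.012. In bulk libraries less RNA per cell and a smaller share of expressing cells cannot be told apart.

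The median gene of the table was itself lower in DPC on this scale, with a log2 difference of -0.15, so the subunits were also set against that shift. Relative to it 34 of 35 subunits lay below, with a median log2 difference of -0.48 from it, and 30 were called below and 0 above, where 37.3% of all genes were called on each side. The median gene of at least 20 FPKM had a log2 difference of -0.27, and that of the 1136 such genes with a length of at most 1000 bases had -0.33. The median difference thus varied with level and length, and both of these medians were nearer to 0 than that of the subunits; the part of level and length in the subunit difference was not tested. Under the other scalings tried, 34 subunits kept a difference below 0 after median-of-ratios scaling or centring on the sample median and 33 after quantile normalization, with 31, 26 and 25 called lower in DPC. Of all 11883 genes tested, 4491, 4212 and 4078 were called lower in DPC in the same order. NDUFB9 and NDUFB11 lost their calls under all 3 of these scalings, NDUFAB1, NDUFB10, NDUFB1 and NDUFA3 after quantile normalization and centring, NDUFB4 after those as well, with a turn of sign under the quantile one, and NDUFV2 after quantile normalization. Without HMC replicate 3, 31 of 35 subunits were called lower in DPC and 0 higher.

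Summed over the 35 subunits, the libraries held 2619, 2627 and 2660 FPKM in DPC and 4159, 4146 and 4225 FPKM in HMC. The sums did not overlap, and the DPC mean was 0.631 of the HMC mean (2635 ± 21.7 FPKM against 4177 ± 42.6 FPKM, SD, n = 3 each). As a share of all FPKM in the library the subunits took 47.7 ± 0.344 per 10000 in DPC and 64.3 ± 0.789 per 10000 in HMC, a ratio of 0.742. These sums rested on 25073 to 26118 reads per library in DPC and 42096 to 44549 in HMC. Per subunit the ratio of mean FPKM in DPC to that in HMC had a median of 0.641 and ranged between 0.402 and 0.990.

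**Figure D1:**
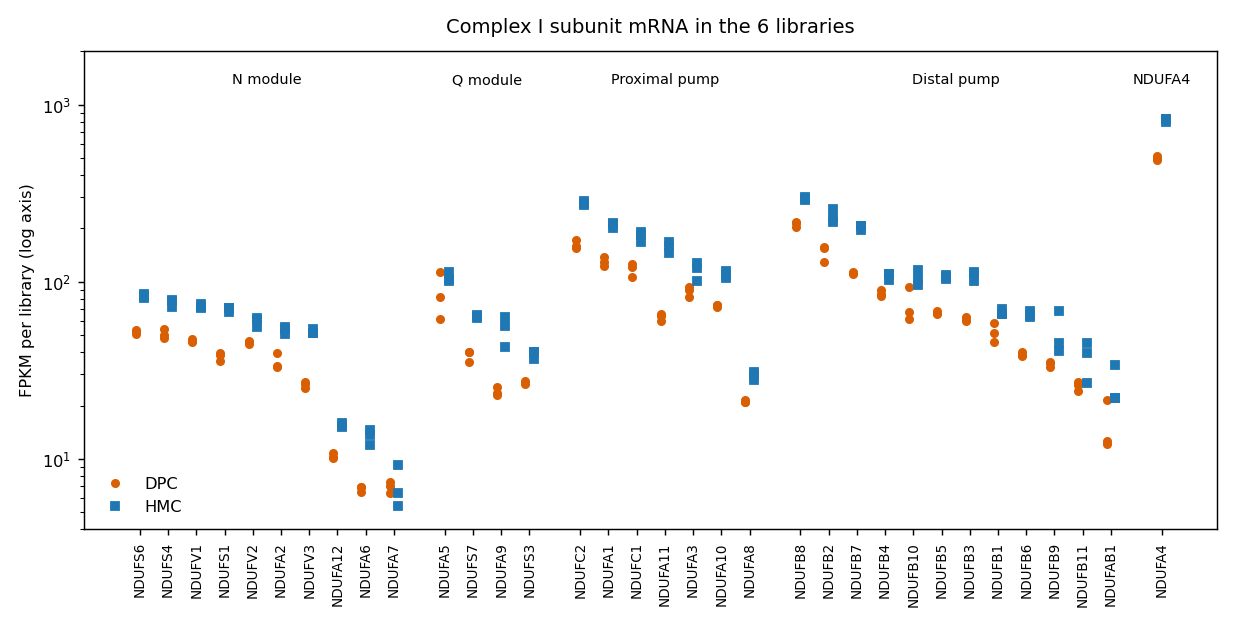
FPKM of 34 of the 35 subunits (log axis) in the 3 DPC libraries (circles, left of each name) and the 3 HMC libraries (squares, right), grouped by module and ordered by mean level. In 31 of the 34 subunits shown the 3 DPC points lie below the 3 HMC points, and NDUFA4 stands highest in both cell types.

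The N module holds the site where NADH is oxidised, and 9 of its 10 subunits were lower in DPC (median log2 difference -0.61), against 46.2% of all genes tested. NDUFV1 (listed under the older symbol UQOR1), the flavoprotein that binds NADH and FMN, had 47.6, 46.5 and 45.9 FPKM in the DPC libraries and 71.2, 74.6 and 72.5 FPKM in the HMC libraries. The libraries of each cell type lay close together and the groups did not overlap (log2 difference -0.63, SE 0.042, adjusted p = 2.13e-06). NDUFS1, the largest core subunit of this module and the carrier of several iron-sulfur clusters, had 39.6, 35.6 and 38.7 FPKM in the DPC libraries and 71.02, 70.8 and 67.6 FPKM in the HMC libraries. Its DPC values lay well below all HMC values (log2 difference -0.86, SE 0.054, adjusted p = 1.37e-06). NDUFV2, which carries an iron-sulfur cluster beside NDUFV1, had 45.5, 44.8 and 46.2 FPKM in the DPC libraries and 55.8, 60.7 and 62.2 FPKM in the HMC libraries. The groups were again apart but by less, and this was the smallest difference of the 6 core subunits measured (log2 difference -0.38, SE 0.052, adjusted p = 2.20e-04); after quantile normalization it was not called (adjusted p = 0.177).

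Among the supernumerary subunits of the N module, NDUFV3, a small subunit bound to the flavoprotein part, had 27.4, 25.02 and 26.3 FPKM in the DPC libraries and 51.3, 51.5 and 53.9 FPKM in the HMC libraries. The DPC libraries were at about the level of their HMC counterparts multiplied by 0.502, the lowest ratio of the module (log2 difference -0.97, SE 0.052, adjusted p = 5.24e-07). NDUFA6, a LYR-motif protein that anchors an acyl carrier protein to the matrix arm, had 6.47, 6.95 and 6.91 FPKM in the DPC libraries and 11.99, 14.5 and 13.7 FPKM in the HMC libraries, with no overlap (log2 difference -0.89, SE 0.081, adjusted p = 1.69e-05). NDUFS6, a zinc-binding subunit needed late in the assembly of the N module, was the most abundant of the module, with 53.3, 50.8 and 52.9 FPKM in the DPC libraries and 82.8, 81.5 and 85.6 FPKM in the HMC libraries. All its DPC values lay below all its HMC values (log2 difference -0.66, SE 0.043, adjusted p = 1.83e-06).

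Other supernumerary subunits of the N module had smaller differences than these 3. NDUFS4, which sits between the N and Q modules and is one of the subunits mutated in human Leigh syndrome, averaged 50.6 ± 3.16 FPKM in DPC libraries, against 76.4 ± 3.65 FPKM in HMC libraries (SD, n = 3 each; log2 difference -0.59). NDUFA2, a thioredoxin-fold subunit bound to NDUFS1, averaged 35.4 ± 3.73 FPKM in DPC libraries, against 53.5 ± 2.38 FPKM in HMC libraries (log2 difference -0.59). NDUFA12, which takes the place that the assembly factor NDUFAF2 holds during assembly, averaged 10.4 ± 0.376 FPKM in DPC libraries, against 15.4 ± 0.412 FPKM in HMC libraries (log2 difference -0.53). Each of these 3 was called lower in DPC, with groups that did not overlap. NDUFA7 (listed as CI-B14-5A) was the exception, with 6.46, 7.01 and 7.46 FPKM in the DPC libraries and 9.23, 5.46 and 6.46 FPKM in the HMC libraries. The groups overlapped and the difference was not called (0.012, adjusted p = 0.946). Its row was the least abundant of the 35 and also carried an annotation of the mitochondrial ribosome, so its identity rests on the older symbol.

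The Q module reduces ubiquinone, and 4 of its 5 measured subunits were lower in DPC (median log2 difference -0.71), against 46.2% of all genes tested. NDUFS7, which holds the last iron-sulfur cluster before ubiquinone, had 35.4, 40.02 and 40.2 FPKM in the DPC libraries and 64.3, 64.5 and 62.4 FPKM in the HMC libraries, and the HMC libraries agreed closely (log2 difference -0.71, SE 0.059, adjusted p = 8.52e-06). NDUFS3, a core subunit among the first to be assembled, had 26.9, 26.4 and 27.5 FPKM in the DPC libraries and 36.5, 39.9 and 40.2 FPKM in the HMC libraries, without overlap and at a smaller difference than NDUFS7 (log2 difference -0.51, SE 0.055, adjusted p = 4.51e-05).

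NDUFA9, a supernumerary subunit at the junction of the matrix and membrane arms that binds a nucleotide, had 25.6, 22.99 and 23.6 FPKM in the DPC libraries and 56.6, 42.9 and 63.3 FPKM in the HMC libraries. The HMC libraries spread more than the DPC libraries, replicate 2 being the lowest, but none reached the DPC range (log2 difference -1.13, SE 0.13, adjusted p = 6.57e-05). It was 1 of the 2 subunits at least 2-fold lower in DPC, where 16.1% of all genes were. NDUFA5, a supernumerary subunit of the matrix arm, had the highest mean of the module, with 61.6, 114 and 82.2 FPKM in the DPC libraries and 101, 104 and 113 FPKM in the HMC libraries. DPC replicate 2 lay above every HMC library while the other DPC libraries lay below them, and the difference was not called (-0.34, adjusted p = 0.128). Without DPC replicate 2 the difference was -0.57 and was called (adjusted p = 0.00375).

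**Figure D2:**
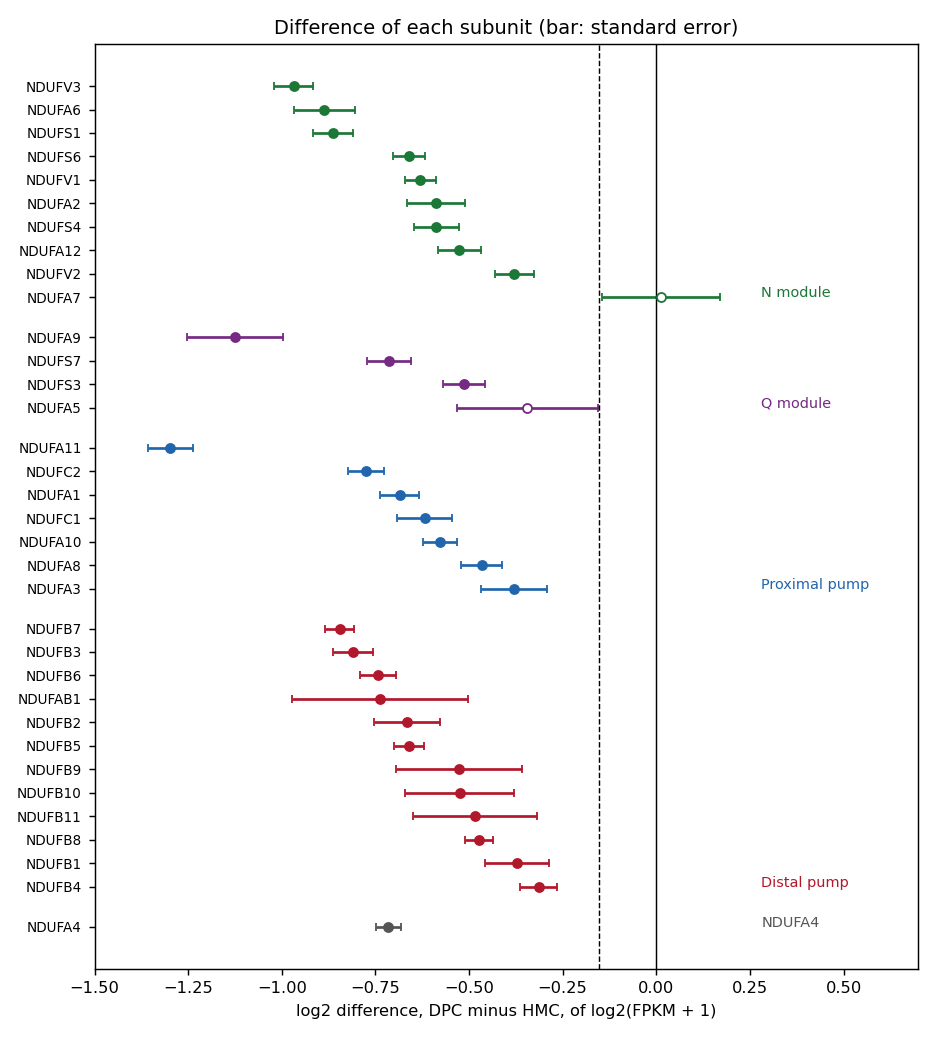
Log2 difference (DPC minus HMC) of log2(FPKM + 1) for 34 of the 35 subunits with the standard error, ordered within modules; filled points were called and open points were not. The dashed line marks the median of all genes (-0.15) and the solid line 0. The 32 filled points lie left of the dashed line, and NDUFA11 and NDUFA9 lie farthest left.

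All 7 measured subunits of the proximal pump module, the part of the membrane arm next to the matrix arm, were lower in DPC (median log2 difference -0.62), against 46.2% of all genes tested. NDUFA11, a membrane subunit at the contact of complex I with complex III in supercomplexes, had 63.8, 60.3 and 65.4 FPKM in the DPC libraries and 167, 145 and 159 FPKM in the HMC libraries. It was the other subunit at least 2-fold lower in DPC. All DPC values lay far below all HMC values, with the lowest DPC to HMC ratio of the 35 subunits at 0.402 (log2 difference -1.30, SE 0.060, adjusted p = 2.10e-07). NDUFC2, a small membrane-spanning subunit and the most abundant of the module, had 172, 156 and 159 FPKM in the DPC libraries and 285, 279.9 and 269.9 FPKM in the HMC libraries, without overlap (log2 difference -0.78, SE 0.047, adjusted p = 1.15e-06). NDUFA1, a single-span membrane subunit encoded on the X chromosome in human, had 129.98, 138 and 122 FPKM in the DPC libraries and 212, 215 and 201 FPKM in the HMC libraries, again without overlap (log2 difference -0.69, SE 0.053, adjusted p = 5.36e-06).

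The other 4 subunits of this module were NDUFC1, NDUFA10, NDUFA8 and NDUFA3. NDUFC1, the partner of NDUFC2, averaged 118 ± 10.6 FPKM in DPC libraries, against 182 ± 11.9 FPKM in HMC libraries (SD, n = 3 each; log2 difference -0.62). NDUFA10, which has the fold of a nucleoside kinase, averaged 73.2 ± 1.09 FPKM in DPC libraries, against 109.8 ± 5.04 FPKM in HMC libraries (log2 difference -0.58). NDUFA8, a cysteine-rich subunit on the intermembrane-space side, averaged 21.1 ± 0.243 FPKM in DPC libraries, against 29.6 ± 1.53 FPKM in HMC libraries (log2 difference -0.47). In all 3 the groups were apart by more than their SDs. NDUFA3, a single-span membrane subunit, had the smallest difference of the module with 88.7 ± 5.72 FPKM in DPC libraries, against 116 ± 13.4 FPKM in HMC libraries, still called and without overlap (-0.38, adjusted p = 0.00417).

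The distal pump module at the far end of the membrane arm had 12 measured subunits. All 12 were called lower in DPC (median log2 difference -0.59), where 46.2% of all genes tested were. After median-of-ratios scaling 10 were called lower, and 6 each after quantile normalization and after centring on the sample median. Among all 11883 genes tested 4491, 4078 and 4212 were lower under these scalings, in that order. NDUFB7, a cysteine-rich subunit facing the intermembrane space, had 113, 110.02 and 114 FPKM in the DPC libraries and 205, 207 and 195 FPKM in the HMC libraries. Replicates agreed closely and the groups lay far apart (log2 difference -0.85, SE 0.039, adjusted p = 1.92e-07). NDUFB3, a single-span subunit, had 63.5, 60.8 and 60.01 FPKM in the DPC libraries and 110.4, 102 and 114 FPKM in the HMC libraries, with no overlap (log2 difference -0.81, SE 0.053, adjusted p = 1.79e-06). NDUFB6, another membrane subunit of this arm, had 38.4, 37.9 and 40.04 FPKM in the DPC libraries and 63.5, 65.3 and 68.1 FPKM in the HMC libraries, with no overlap (log2 difference -0.74, SE 0.047, adjusted p = 1.60e-06). NDUFB8, the most abundant subunit of the module and one often used on protein blots as a sign of assembled complex I, had 216, 216 and 203 FPKM in the DPC libraries and 300.4, 294 and 288 FPKM in the HMC libraries. Its groups did not overlap, at a smaller difference than the 3 above (log2 difference -0.47, SE 0.038, adjusted p = 7.05e-06).

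NDUFB2 averaged 148 ± 15.2 FPKM in DPC libraries, against 234 ± 21.3 FPKM in HMC libraries (SD, n = 3 each; log2 difference -0.67), and NDUFB5 averaged 66.7 ± 1.16 FPKM in DPC libraries, against 106 ± 2.68 FPKM in HMC libraries (log2 difference -0.66). The smallest differences of the module were those of NDUFB1, with 51.9 ± 6.45 FPKM in DPC libraries, against 67.1 ± 2.34 FPKM in HMC libraries (log2 difference -0.37), and NDUFB4, with 86.2 ± 3.43 FPKM in DPC libraries, against 107 ± 4.87 FPKM in HMC libraries (log2 difference -0.31). In these 4 membrane-arm subunits all DPC values lay below all HMC values. After quantile normalization the difference of NDUFB4 was 0.0040 and not called.

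The remaining 4 subunits of the distal module varied more between replicates. NDUFB10, a cysteine-rich intermembrane-space subunit, had 67.8, 61.2 and 92.98 FPKM in the DPC libraries and 96.2, 104 and 117 FPKM in the HMC libraries, and DPC replicate 3 came close to the lowest HMC library (log2 difference -0.53, SE 0.14, adjusted p = 0.0104). NDUFB9 (listed as UQOR22), a LYR-motif subunit, had 34.99, 35.2 and 33.1 FPKM in the DPC libraries and 44.9, 40.7 and 68.5 FPKM in the HMC libraries, HMC replicate 3 standing above the other HMC libraries (log2 difference -0.53, SE 0.17, adjusted p = 0.0203). NDUFB11, a membrane subunit encoded on the X chromosome in human, had 26.2, 24.05 and 27.1 FPKM in the DPC libraries and 45.2, 26.9 and 39.7 FPKM in the HMC libraries. Its HMC replicate 2 lay within the DPC range, so that the groups overlapped although the gene was called (log2 difference -0.48, SE 0.17, adjusted p = 0.0272). NDUFAB1, the mitochondrial acyl carrier protein, which also serves fatty acid synthesis and iron-sulfur cluster assembly, had 21.5, 12.6 and 12.1 FPKM in the DPC libraries and 21.97, 22.1 and 33.9 FPKM in the HMC libraries. DPC replicate 1 came close to the lowest HMC libraries, and HMC replicate 3 was the highest of all (log2 difference -0.74, SE 0.23, adjusted p = 0.0202). NDUFB9, NDUFB11 and NDUFAB1 were the 3 subunits called lower in DPC that were not called below the median shift of all genes. NDUFB11 was not called without DPC replicate 1 or 2 or without HMC replicate 1 or 3 (adjusted p between 0.0561 and 0.0872). NDUFAB1 was not called without DPC replicate 2 or 3 or HMC replicate 3 (adjusted p between 0.0672 and 0.0716), nor NDUFB9 without DPC replicate 3 (adjusted p = 0.0591).

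Taken by role, all 6 measured core subunits were called lower in DPC (median log2 difference -0.67), as were 26 of 28 supernumerary subunits (median -0.60) and 46.2% of all genes tested. The modules had similar medians, between -0.59 and -0.71, and their ranges overlapped. The SD of the 35 log2 differences was 0.24, against 1.45 over all genes tested. Their quartiles were -0.76 and -0.50. Annotated rows of complex IV had quartiles of -0.75 and -0.58, those of ATP synthase -0.86 and -0.44. For complexes II and III they were -0.71 and -0.23, and -0.70 and -0.24. A narrow spread is thus not shown to be particular to complex I. The order of abundance was close to the same in both cell types, with a Spearman correlation of mean FPKM of 0.976 and a Pearson correlation of log10 mean FPKM of 0.983 across the 35 subunits. Those points share libraries and gene models, whose lengths ran from 213 to 3185 bases, and the correlations are given as a description.

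NDUFA4 was first described as a subunit of complex I and was later assigned to cytochrome c oxidase, complex IV. It was the most abundant member, with 499, 484 and 512 FPKM in the DPC libraries and 797, 832 and 829 FPKM in the HMC libraries. The groups stood far apart (log2 difference -0.72, SE 0.034, adjusted p = 2.23e-07), and without it the summed level of the other subunits had a DPC to HMC ratio of 0.636. Its paralog NDUFA4L2, which is induced by low oxygen in human and mouse cells and is not annotated as a member, had the opposite direction at a low level, with 2.81, 1.15 and 3.97 FPKM in the DPC libraries and 0, 0.271 and 0 FPKM in the HMC libraries. These values came from 10, 4 and 14 reads in DPC and 0, 1 and 0 reads in HMC, and the difference was called (adjusted p = 7.23e-04). A further paralog, C15orf48, was looked at after its values were seen and had 18.9, 22.6 and 21.7 FPKM in the DPC libraries and 54.8, 41.7 and 42.1 FPKM in the HMC libraries, lower in DPC without overlap (log2 difference -1.09, SE 0.11, adjusted p = 3.81e-05). A row named MTND4, which is not a member, held at most 1 read in any library and was not tested.

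Replicates of 1 cell type agreed to within a few percent for most subunits. The coefficient of variation of FPKM had a median of 4.46% in DPC and 4.77% in HMC, where counting of the reads alone would give 4.02% in DPC and 3.13% in HMC. It passed 15% for 3 subunits in DPC, NDUFAB1 (34.4%), NDUFA5 (30.6%) and NDUFB10 (22.6%). It did so for 5 subunits in HMC, NDUFB9 (29.2%), NDUFA7 (27.8%), NDUFAB1 (26.3%), NDUFB11 (25.1%) and NDUFA9 (19.1%). NDUFAB1 was the only subunit in both of these groups. Reads per subunit and library ran from 128 to 3341, and the spread beyond counting in these 7 subunits was not tested further.

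**Figure D3:**
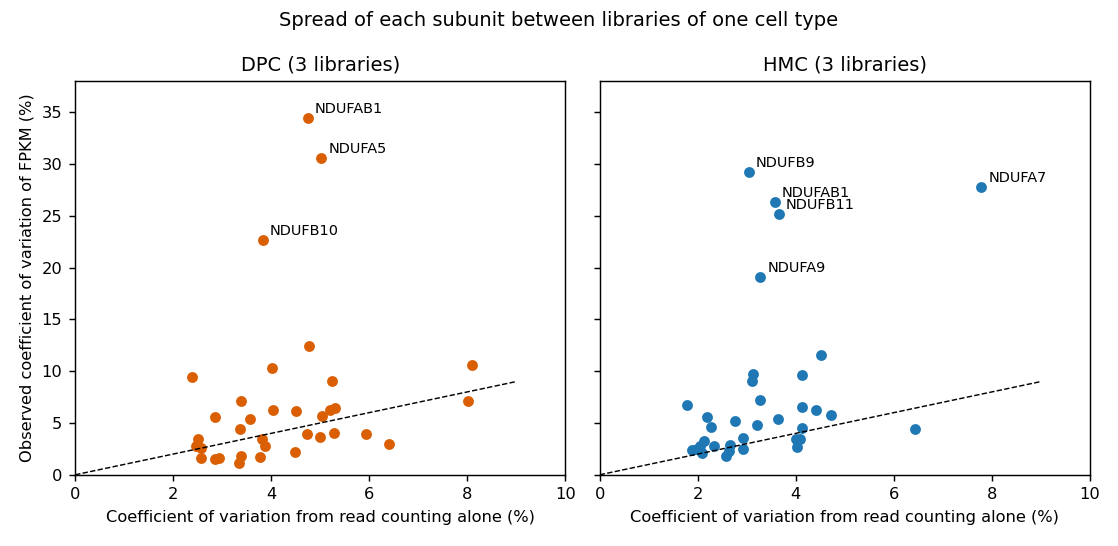
Observed coefficient of variation of FPKM over 3 libraries against that expected from read counting alone, both in percent, for the 35 subunits in DPC (left) and HMC (right); the dashed line marks equality. Most points lie below 15%, and the 3 subunits in DPC and 5 in HMC above it are named.

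The 10 further rows of subunit symbols held at most 27.01 FPKM in any library, and their values are uncertain, because how any reads shared between rows of a symbol were counted is not known. Of these, 4 rows of NDUFB8, NDUFB4, NDUFB5 and NDUFA1 were below the 0.5 FPKM minimum and were not tested. Of the 6 tested, 2 were lower in DPC, a further row of NDUFA2 (7.67, 10.6 and 7.74 FPKM in DPC, against 16.6, 15.5 and 14.2 FPKM in HMC) and one of NDUFB2 (4.29, 4.82 and 1.99 FPKM in DPC, against 7.35, 5.70 and 6.87 FPKM in HMC). The row of NDUFB2 was not called without HMC replicate 1 (adjusted p = 0.0617) or 3 (adjusted p = 0.0529). Another row of NDUFA2 (12.2 to 14.9 FPKM in DPC, 13.2 to 18.5 FPKM in HMC) and a second row of NDUFC1 (20.3 to 24.7 FPKM in DPC, 22.9 to 27.01 FPKM in HMC) overlapped between groups and were not called, though the row of NDUFC1 was called lower in DPC without HMC replicate 1 (adjusted p = 0.0497). Second rows of NDUFA5 and NDUFB3 reached at most 2.62 FPKM and were not called either. With the rows of each symbol summed, 33 of 37 tested members were lower in DPC and 0 higher.

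None of the 3 members that are not subunits was called lower in DPC. PARK7 (DJ-1), a redox-sensitive protein mutated in a form of Parkinson's disease, had 181, 199 and 199 FPKM in the DPC libraries and 199.9, 202 and 194 FPKM in the HMC libraries. The groups overlapped (-0.043, adjusted p = 0.428), and the gene was called higher in DPC after quantile normalization (log2 difference 0.19, adjusted p = 0.00682) and after centring on the sample median (0.15, adjusted p = 0.0289). FOXRED1, a flavoprotein that acts in complex I assembly, had 7.16, 8.09 and 6.53 FPKM in the DPC libraries and 8.64, 7.73 and 7.51 FPKM in the HMC libraries, with overlapping groups (-0.12, adjusted p = 0.259). WDR93, a protein with WD repeats, had 0.180 to 0.606 FPKM in DPC and 0.458 to 0.644 FPKM in HMC and was not tested.

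Assembly factors, which build complex I and are not part of it, included genes higher and genes lower in DPC. Of 20 listed factors 17 were matched and tested, FOXRED1 among them, and 3 were higher in DPC (17.6%), 6 lower (35.3%) and 8 not called, against 29.7% higher and 46.2% lower over all genes. Their median log2 difference was -0.01, above the median of all genes by 0.14, and it was 0.01 without HMC replicate 3. Under median-of-ratios scaling, quantile normalization and centring on the sample median the median was 0.12, 0.15 and 0.18. The median of all genes was -0.01, 0.05 and 0.04 under these scalings. Of the 17 factors 5, 5 and 7 were called higher in DPC, and 2 lower in each. Among all 11883 genes tested 4342, 4745 and 4702 were higher, and 4491, 4078 and 4212 lower. TMEM70, which helps to assemble the membrane arm and ATP synthase, had 8.45, 9.23 and 9.45 FPKM in the DPC libraries and 6.31, 6.19 and 6.15 FPKM in the HMC libraries and was higher in DPC without overlap (log2 difference 0.48, SE 0.068, adjusted p = 2.73e-04). TMEM126B (listed as HT007), part of the complex that assembles the proximal membrane arm, averaged 10.4 ± 0.453 FPKM in DPC libraries, against 7.30 ± 1.63 FPKM in HMC libraries (SD, n = 3 each) and was also higher in DPC (log2 difference 0.47, SE 0.13, adjusted p = 0.012). NDUFAF6 was the other factor higher in DPC (0.32, adjusted p = 0.0148).

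NDUFAF3, which acts early in the assembly of the Q module, went the other way, with 34.2, 36.9 and 31.98 FPKM in the DPC libraries and 46.9, 57.2 and 55.99 FPKM in the HMC libraries and no overlap (log2 difference -0.62, SE 0.086, adjusted p = 2.35e-04). TIMMDC1 (listed as UNQ247/PRO284), which acts in building the membrane arm, averaged 8.59 ± 1.10 FPKM in DPC libraries, against 12.7 ± 1.43 FPKM in HMC libraries, and was also lower in DPC (log2 difference -0.52, SE 0.11, adjusted p = 0.00233). DMAC1, a factor of the distal membrane arm, was the most abundant, with 82.6, 90.1 and 78.2 FPKM in the DPC libraries and 83.3, 67.03 and 75.2 FPKM in the HMC libraries, and was not called (0.15, adjusted p = 0.129), though it was called higher in DPC without HMC replicate 1 (adjusted p = 0.031) and under each of the 3 other scalings. NDUFAF8 varied most within a group, from 4.72 to 34.3 FPKM across the HMC libraries, and was not called. Without HMC replicate 3, the lowest, its log2 difference was -0.58 (adjusted p = 0.158). The 16 genes annotated with the complex I assembly term that were not members gave a like picture, 2 higher and 5 lower in DPC with a median of -0.02. The difference between factors and subunits was not tested.

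Iron-sulfur cluster assembly supplies the clusters along which complex I passes electrons. Of 14 genes listed and tested, 3 were higher in DPC (21.4%) and 6 lower (42.9%), shares that stood below those of all genes (29.7% and 46.2%), with a median log2 difference of -0.19. Under median-of-ratios scaling, quantile normalization and centring the counts were 3, 4 and 3 higher and 4 lower in each, and the median was -0.05, -0.0027 and -0.0015. Among all 11883 genes tested 4342, 4745 and 4702 were then higher, and 4491, 4078 and 4212 lower. HSPA9 (mortalin), the matrix chaperone of cluster transfer and protein import, was the most abundant, with 380.1, 371 and 385 FPKM in the DPC libraries and 202, 209 and 235 FPKM in the HMC libraries, and was higher in DPC without overlap (log2 difference 0.81, SE 0.056, adjusted p = 2.70e-06). Its co-chaperone HSCB (listed as DNAJC20) averaged 11.7 ± 1.33 FPKM in DPC libraries, against 20.7 ± 1.28 FPKM in HMC libraries (SD, n = 3 each) and was lower in DPC (log2 difference -0.78, SE 0.088, adjusted p = 6.18e-05). BOLA3, a late-acting factor, averaged 6.19 ± 3.16 FPKM in DPC libraries, against 3.03 ± 0.367 FPKM in HMC libraries, and was called higher in DPC, with DPC replicate 3 above the other DPC libraries (log2 difference 0.75, SE 0.26, adjusted p = 0.0281). It was not called without HMC replicate 1 (adjusted p = 0.0812) or 3 (adjusted p = 0.0726). NFS1, the cysteine desulfurase that provides the sulfur, averaged 7.45 ± 0.372 FPKM in DPC libraries, against 13.4 ± 1.40 FPKM in HMC libraries, and was lower in DPC (-0.77, adjusted p = 5.83e-05). ISCU (listed as NIFUN) averaged 21.9 ± 0.467 FPKM in DPC libraries, against 14.96 ± 1.01 FPKM in HMC libraries, and was the other gene higher in DPC (0.52, adjusted p = 9.67e-05).

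**Figure D4:**
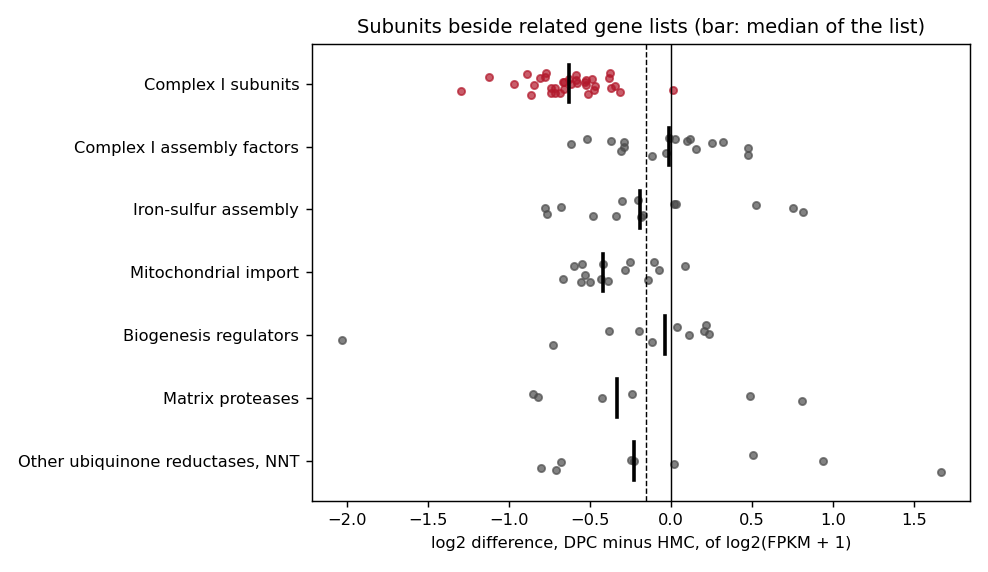
Log2 difference (DPC minus HMC) of log2(FPKM + 1) for the 35 complex I subunits and for the tested genes of 6 related lists; each point is a gene and each black bar the median of its list. The dashed line marks the median of all genes (-0.15) and the solid line 0. Subunits lie at a median of -0.63, and assembly factors at -0.01.

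Among 14 regulators of mitochondrial transcription and biogenesis 11 were matched and 10 tested. Of these 1 was higher in DPC (10%) and 3 lower (30%), against 29.7% and 46.2% of all genes. The median log2 difference was -0.04. These counts changed with the scaling, as did those of all genes. Under median-of-ratios scaling, quantile normalization and centring 4 were higher in each and 3, 2 and 3 lower, with medians of 0.11, 0.14 and 0.15. PPRC1, TFB1M and MTERF1 joined GABPA among those higher. Over all 11883 genes tested, 4342, 4745 and 4702 were higher in DPC under these scalings, and 4491, 4078 and 4212 lower. PPARGC1B (PGC-1beta, listed as PERC), a coactivator of nuclear genes for mitochondrial proteins, had 1.37, 1.51 and 1.62 FPKM in the DPC libraries and 9.43, 8.84 and 9.37 FPKM in the HMC libraries. All DPC values lay far below all HMC values (log2 difference -2.03, SE 0.076, adjusted p = 5.30e-08). Its relative PPARGC1A (PGC-1alpha) had a mean of 0.255 FPKM in DPC, was at 0 in all 3 HMC libraries and was not tested. POLRMT, the mitochondrial RNA polymerase, averaged 12.1 ± 0.544 FPKM in DPC libraries, against 20.8 ± 1.08 FPKM in HMC libraries (SD, n = 3 each) and was lower in DPC (log2 difference -0.73, SE 0.064, adjusted p = 1.21e-05). YY1 (listed as INO80S), a transcription factor and the most abundant gene of the list, averaged 30.9 ± 0.551 FPKM in DPC libraries, against 40.6 ± 2.82 FPKM in HMC libraries, and was also lower in DPC (-0.38, adjusted p = 4.60e-04), though not called after quantile normalization (adjusted p = 0.141). GABPA (listed as E4TF1A), a subunit of the nuclear respiratory factor that binds promoters of many subunit genes, was the one called higher in DPC without such scaling (0.22, adjusted p = 0.0257), and on those values, with any library other than DPC replicate 2 or HMC replicate 3 left out it was not called (adjusted p between 0.0569 and 0.0851). TFAM, which packages mitochondrial DNA, averaged 17.03 ± 0.972 FPKM in DPC libraries, against 18.6 ± 1.03 FPKM in HMC libraries, and was not called (-0.12, adjusted p = 0.145); its difference was above 0 under each of the 3 other scalings, and it was called under none of them.

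The import machinery through which nuclear-encoded subunits enter mitochondria had 11 of 15 genes lower in DPC (73.3%, against 46.2% of all genes) and 0 higher (median log2 difference -0.42). After median-of-ratios scaling, quantile normalization and centring on the sample median the counts were 8, 7 and 8 lower and 1, 2 and 1 higher. Among all 11883 genes tested 4491, 4078 and 4212 were then lower, and 4342, 4745 and 4702 higher. TIMM50 (listed as TIM50), a receptor of the inner-membrane translocase, averaged 41.4 ± 2.81 FPKM in DPC libraries, against 66.6 ± 8.03 FPKM in HMC libraries (SD, n = 3 each; -0.67, adjusted p = 1.67e-04). TIMM10 (listed as TIM10), a small chaperone of the intermembrane space, averaged 14.9 ± 0.889 FPKM in DPC libraries, against 23.1 ± 1.38 FPKM in HMC libraries (-0.60, adjusted p = 6.22e-05). TIMM17A (listed as MIMT17), a channel subunit of the same translocase as TIMM50, averaged 182 ± 3.96 FPKM in DPC libraries, against 268 ± 8.34 FPKM in HMC libraries (-0.56, adjusted p = 2.28e-06). In these 3 the groups lay apart. TIMM13 (listed as TIM13B), another small chaperone, averaged 231 ± 8.30 FPKM in DPC libraries, against 218 ± 2.72 FPKM in HMC libraries, and was not called (0.088, adjusted p = 0.0616), though it was called higher in DPC under each of the 3 other scalings and without DPC replicate 3 (adjusted p = 0.0371).

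Of 7 listed matrix and inner-membrane proteases of mitochondrial quality control 6 were tested. In DPC 2 were higher (33.3%) and 4 lower (66.7%), against 29.7% and 46.2% of all genes. LONP1 (listed as PRSS15) and CLPP were higher in DPC, and AFG3L2, OMA1, SPG7 and CLPX lower. SPG7 was not called after quantile normalization, and CLPX was called under none of the 3 other scalings. LONP1 had 76.97, 74.9 and 78.4 FPKM in the DPC libraries and 45.5, 42.6 and 42.2 FPKM in the HMC libraries, without overlap (log2 difference 0.81, SE 0.047, adjusted p = 9.01e-07). AFG3L2, a subunit of the membrane-bound matrix protease, had 24.2, 25.9 and 25.95 FPKM in the DPC libraries and 50.5, 44.1 and 45.4 FPKM in the HMC libraries, without overlap in the other direction (log2 difference -0.85, SE 0.064, adjusted p = 4.54e-06). OMA1, a stress-activated inner-membrane protease, averaged 2.50 ± 0.330 FPKM in DPC libraries, against 5.20 ± 0.653 FPKM in HMC libraries (SD, n = 3 each; -0.82, adjusted p = 1.71e-04).

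Other enzymes that reduce ubiquinone were listed together with NNT, the transhydrogenase of the inner membrane. Of 9 tested genes 3 were higher in DPC (33.3%) and 4 lower (44.4%), shares near those of all genes (29.7% and 46.2%). The median log2 difference was -0.23. Under median-of-ratios scaling, quantile normalization and centring 3 were higher and 3 lower in each, with medians of -0.07, 0.06 and -0.04. Among all 11883 genes tested 4342, 4745 and 4702 were then higher, and 4491, 4078 and 4212 lower. SQOR (listed as CGI-44), which oxidises sulfide, had 41.5, 39.1 and 39.4 FPKM in the DPC libraries and 12.03, 12.9 and 11.02 FPKM in the HMC libraries. The groups lay far apart (log2 difference 1.66, SE 0.066, adjusted p = 8.09e-08). NNT, which itself does not reduce ubiquinone, averaged 32.4 ± 0.874 FPKM in DPC libraries, against 16.5 ± 0.117 FPKM in HMC libraries (SD, n = 3 each) and was also higher in DPC (log2 difference 0.93, SE 0.049, adjusted p = 4.76e-07). DHODH, of pyrimidine synthesis, was the other gene higher in DPC (0.51, adjusted p = 0.00244). SDHA (listed as SDH2), the flavoprotein of complex II and the most abundant gene of the list, averaged 81.6 ± 5.71 FPKM in DPC libraries, against 144 ± 15.2 FPKM in HMC libraries, and was lower in DPC (log2 difference -0.80, SE 0.083, adjusted p = 3.66e-05).

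The other complexes of oxidative phosphorylation had medians near that of the complex I subunits. They were counted by annotated row, with repeated symbols and with genes that are not subunits, such as TMEM70. Complexes III and IV share the gene UQCRC2 in this annotation. Members of complex I, NDUFA4 among them, were left out of the rows of complex IV. Lower in DPC were 3 of 5 tested rows of complex II and 7 of 11 of complex III. For complex IV this was 9 of 10, and for ATP synthase 17 of 25. The median log2 differences were -0.68, -0.57, -0.67 and -0.71. Counted by row in the same way, 35 of 43 complex I members were lower (81.4%), with a median of -0.59. Of all genes 46.2% were lower. Higher in DPC were 0 rows of complex II, 2 of complex III (both of UQCRB), 1 of complex IV (NDUFA4L2) and 2 of ATP synthase (TMEM70 and ATP5G1). Complex III had 1 without DPC replicate 2 or 3 or HMC replicate 1 or 2, and ATP synthase had 1 without HMC replicate 1. NDUFA4L2 and TMEM70 are the genes already described above. Genes of the mitochondrial ribosome had a median of -0.29, with 47 of 80 lower (58.8%) and 10 higher (12.5%) in DPC, and the tested genes annotated to the mitochondrion that were not members had -0.23, with 368 of 713 lower (51.6%) and 145 higher (20.3%), against 46.2% and 29.7% of all genes. After quantile normalization the medians of the ribosome and of the wider mitochondrial set came to -0.06 and -0.02, with 26 and 257 lower in DPC and 22 and 231 higher. That scaling gave 4078 of all 11883 genes tested lower and 4745 higher. The median of the complex I subunits came to -0.36 under the same scaling, and those of complexes II, III and IV and of ATP synthase to -0.39, -0.26, -0.40 and -0.49. None of these sets was tested against complex I, so none of their differences is shown to be particular to it.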

How the data were processed

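Messenger RNA of 3 DPC and 3 HMC cultures was measured from stranded TruSeq mRNA libraries, per the labels' protocols. The authors' deposited values are FPKM, in 1 table of 15646 genes with a column for each sample. HISAT2 2.2.1.0, DESeq 1.20.0 and Trimmomatic are named, without roles, in the submitters' processing notes. No source used here names the read counter, genome build or annotation, and neither coordinates nor sequences are printed. FPKM corrects for gene length and mapped fragments but not for RNA composition. For 100% of genes the values were whole multiples of a step, within a relative tolerance of 1e-10, and gave reads, lengths and library totals that returned the deposited FPKM.

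The test was that of limma 3.58.1 (R 4.3.3), two-sided, on log2(FPKM + 1). Its prior variance followed the mean, genes averaging under 0.5 FPKM were left out, and p was adjusted over the remaining 11883 by the Benjamini-Hochberg method, with a threshold of 0.05. Differences are DPC minus HMC, and this scale understates those of low genes. The subtraction of the median of all genes, voom on the recovered reads and the summing of rows were alternatives chosen after seeing the data. Other alternatives were a pseudocount of 0.1, filters of none and 5 FPKM, 3 other scalings, a prior without trend, a block for the replicate number, and leaving out 1 library at a time. The procedure was tested on simulated data. Python 3.11.15, numpy 2.4.6, pandas 2.3.3 and matplotlib 3.10.9 were also used.

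The members and gene lists were chosen with earlier results of these data known. Of 152 listed symbols 86 matched directly, 45 matched through older symbols after the data were seen, and 21 are not analysed here. A symbol found in more than 1 row was represented by its most abundant row. Genes were named by a rule: core subunits, NDUFA4 and its paralog, the 3 of each module farthest from the median of all genes, the most abundant of each module, and likewise for the related lists. The other subunits, C15orf48 and some further genes of the related lists were named in addition. One subunit under this rule is not reported here; counts, sums and medians include it.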

Additional observations from a re-analysis of the deposited data

How the results depend on the processing

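Of 43 members 35 were lower and 0 higher in DPC; the number lower was 35 with a pseudocount of 0.1, no filter, a filter at 5 FPKM, a prior without trend, the replicate block or voom on recovered reads, 33 after median-of-ratios scaling, 27 after quantile normalization and after centring on the sample median, 32 against the median shift, and 32 to 35 with 1 replicate left out. The number higher was 1, PARK7, after quantile normalization and after centring. The members' median minus that of all genes was -0.43, with -0.50 without a filter, -0.38 after quantile normalization and -0.39 to -0.50 with 1 replicate left out. The share of all calls that were higher in DPC was 39.1%, and 49.2%, 53.8% and 52.7% after median-of-ratios, quantile and median-centred scaling, with the median of all genes at -0.15, -0.01, 0.05 and 0.04. The cause of these shifts was not tested.

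Most signs that turned were of values near 0 that were not called under either setting. The exceptions were NDUFB4, called lower in DPC and at 0.0040 after quantile normalization, and PARK7, not called as reported but called higher in DPC after quantile normalization and after centring. FOXRED1 had 0.022 after median-of-ratios scaling, 0.030 after quantile normalization, 0.071 centred and 0.034 against the shift, and PARK7 had 0.12, 0.19, 0.15 and 0.11 in that order and -0.067 to 0.0033 with 1 replicate left out. The further row of NDUFA5 had 0.0028, 0.062, 0.14 and 0.099 in that order and -0.23 to 0.28 with 1 replicate left out. The further row of NDUFC1 had 0.079 after quantile normalization and 0.033 centred, and NDUFA7 had -0.13 to 0.20 with 1 replicate left out. The cause was not tested. Of the single-member values under alternatives, 669 kept their direction and call, 30 lost a call, 2 gained one and 21 changed sign.

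Replicate numbers in the labels are shared, but deviations of same-numbered libraries correlated by only 0.023, 0.034 and 0.006, so the numbers were not taken to pair the samples; with the replicate block 8924 genes were called, against 9020 without it, and 35 members were lower in DPC. Voom on the recovered reads called 9057 genes. Rows under 0.5 FPKM rest on few reads and were not tested in the reported comparison; without this filter 9851 genes were called.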

Other observations

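Some genes of the other respiratory complexes, picked out after their values were seen, were called in the direction opposite to most of their complex. A row of UQCRB, a subunit of complex III, was higher in DPC, with a mean of 19.3 FPKM in DPC against 8.05 FPKM in HMC (log2 difference 1.18, adjusted p = 3.63e-04). Another row of UQCRB had a smaller difference, with a mean of 19.5 FPKM in DPC against 16.7 FPKM in HMC (log2 difference 0.21, adjusted p = 0.030). Only 1 row of complex III was called higher without DPC replicate 2 or 3, without HMC replicate 1 or 2, or with voom on the recovered reads. ATP5G1, which encodes the ring subunit of ATP synthase, averaged 36.3 FPKM in DPC against 30.8 FPKM in HMC (log2 difference 0.22, adjusted p = 0.0215), and was not called without HMC replicate 1. ATP5G3, which encodes the same mature ring protein, averaged 544.3 FPKM in DPC against 1112 FPKM in HMC and was lower in DPC (log2 difference -1.03, adjusted p = 8.21e-08). UQCRFS1, the iron-sulfur subunit of complex III, went with most of its complex and averaged 48.4 FPKM in DPC against 102 FPKM in HMC (log2 difference -1.07, adjusted p = 4.93e-08).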
